A study of Eucalyptus grandis
Pisolithus microcarpus and Eucalyptus grandis with 23 samples.

Results

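RNA was sequenced from Eucalyptus grandis roots carrying the ectomycorrhizal fungus Pisolithus microcarpus strain SI-12 and in roots without a fungus, both kept at ambient CO2 of 400 ppm. The comparison takes every library of the groups SI_12_ECM_400 (3 libraries) and Control root 400 (6 libraries), chosen by their labels alone, which makes 9 of the 23 libraries of the study. Each seedling was 1 month old when it was moved to a Petri dish, and a small square of SI-12 mycelium was laid on the root of the inoculated plants. The control plants were axenic and were otherwise handled in the same way. Plates stood for 1 month in growth chambers that held a constant CO2 level, and whole root tissue was frozen inside the chamber. Roots with strain SI-9 at 400 ppm (3 libraries), SI-12 roots at 650 ppm (3 libraries) and control roots at 650 ppm (5 libraries) are used below to show where SI-12 roots at 400 ppm differed. All 23 libraries, with SI-9 roots at 650 ppm among them, also entered the fit behind the tests, and so its estimate of spread. The question addressed is which host transcripts differ in SI-12 ectomycorrhizal roots at ambient CO2.

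In an ectomycorrhiza, a soil fungus sheathes the short lateral roots of a tree with a mantle and grows between the outer root cells as a Hartig net, across which the plant supplies sugars and the fungus supplies mineral nutrients. Pisolithus species are common partners of eucalypts, and isolates of one species can differ in how readily they colonise a given host. Host transcripts known to respond in such roots in other systems include transporters, cell wall enzymes, secreted proteins and defence genes. Here the gene identifiers (of the form Eucgr.C00942.1) are given without descriptions, and 0 of the 36376 identifiers matched the RefSeq gene table available (assembly ASM1654582v1). Genes are therefore named by identifier only, no role is assigned to any of them, and neither markers of root cell types nor mycorrhiza marker genes could be checked. The tables list plant genes, and fungal transcripts were not analysed here. In bulk roots, fewer cells of a type and less RNA per cell cannot be told apart.

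SI-12 roots had 10258852, 9427857 and 14823361 gene reads per library, against 13570653 to 30210474 in the 6 control libraries. The labels call the libraries biological replicates, yet they form near-identical sets. Beyond counting error, pairs of SI-12 libraries differed by a coefficient of variation of 0.115 to 0.158. Pairs within control libraries 1 to 3 differed by 0.0643 to 0.0821 and pairs within control libraries 4 to 6 by 0.0779 to 0.0993, whereas a library of one control set differed from one of the other by 0.448 to 0.464. SI-12 libraries differed from control libraries 4 to 6 by 0.524 to 0.549 and from control libraries 1 to 3 by 0.542 to 0.576. The distance between the 2 sets of control roots thus came close to the distance between SI-12 and control roots. By the library numbers in the deposited names, SI-12 libraries (13 to 15) and control libraries 4 to 6 (16 to 18) are neighbours, and control libraries 1 to 3 carry the numbers 4 to 6. Nothing in the labels says what separates the sets, so results are given against all 6 control libraries and against each set. Where a set stems from 1 RNA pool or culture, p-values over libraries count technical repeats as separate samples. The spread behind these p-values mixes differences within sets with differences between sets of the same group. With 1 mean per group, its common coefficient of variation was 0.276, above the values within the SI-12 and control sets. Other groups add to it: in SI-9 roots at 650 ppm, library 3 differed from libraries 1 and 2 by 0.511 and 0.520.

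Of 27386 genes tested, 3969 (14.5%) rose and 4867 (17.8%) fell in SI-12 roots against all control roots at 400 ppm (edgeR's quasi-likelihood test, adjusted p under 0.05). The median log2 change was 1.22 among genes that rose and -0.98 among genes that fell, and -0.04 over all genes tested. Of the genes that rose, 1691 changed by less than 2-fold, as did 2475 of those that fell. Changes of 2-fold or more were near balance, with 2278 genes higher and 2392 lower, and so were changes of 8-fold or more, with 659 higher and 707 lower. With each near-identical set summed and taken as 1 replicate, edgeR called 0 genes (3597 had an unadjusted p below 0.05), DESeq2 called 642 genes higher and 810 lower, so the counts over single libraries rest on treating the libraries as separate samples.

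Against control libraries 4 to 6 alone, 4432 genes (16.2%) stood higher in SI-12 roots and 5061 (18.5%) lower, 34.7% in all. Against control libraries 1 to 3 alone, 4981 (18.2%) were higher and 5315 (19.4%) lower, 37.6% in all. Both counts use the same SI-12 libraries. They come from the fit with 2 control means, whose spread leaves out the distance between the control sets. Its common coefficient of variation was 0.202, against 0.276 with 1 control mean. These counts are therefore not on the same footing as those against all 6 control libraries. Of the 27386 genes tested, calls in the same direction against either set covered 2575 higher and 2961 lower genes. In 144 genes the call was higher against libraries 4 to 6 and lower against libraries 1 to 3, and in 177 genes it was the reverse. Control libraries 4 to 6 themselves differed from control libraries 1 to 3 in 3789 higher (13.8%) and 3315 lower (12.1%) genes by the same test, 25.9% in all.

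A stricter description asks how far SI-12 roots lay from the nearer control set. CPM (gene read counts scaled to a common library size with TMM factors) of all 3 SI-12 libraries lay above all 6 control libraries in 4231 genes (15.4%) and below all 6 in 4545 genes (16.6%). In 3364 genes (12.3%) the SI-12 mean lay above both control sets, with no overlap of libraries, and farther from the nearer set than the sets lay from each other. The same held below both sets in 3592 genes (13.1%). Among these, 1474 higher and 1083 lower genes, of 27386 tested, were called and at least 2-fold away from the nearer set. The median absolute log2 distance of SI-12 roots from the mean of the control sets was 0.332, against 0.281 between the control sets. Counts with a control set in the place of SI-12 roots are not given here. The counts above therefore describe where SI-12 roots lay and do not measure a difference beyond that between sets of libraries.

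**Figure D1:**
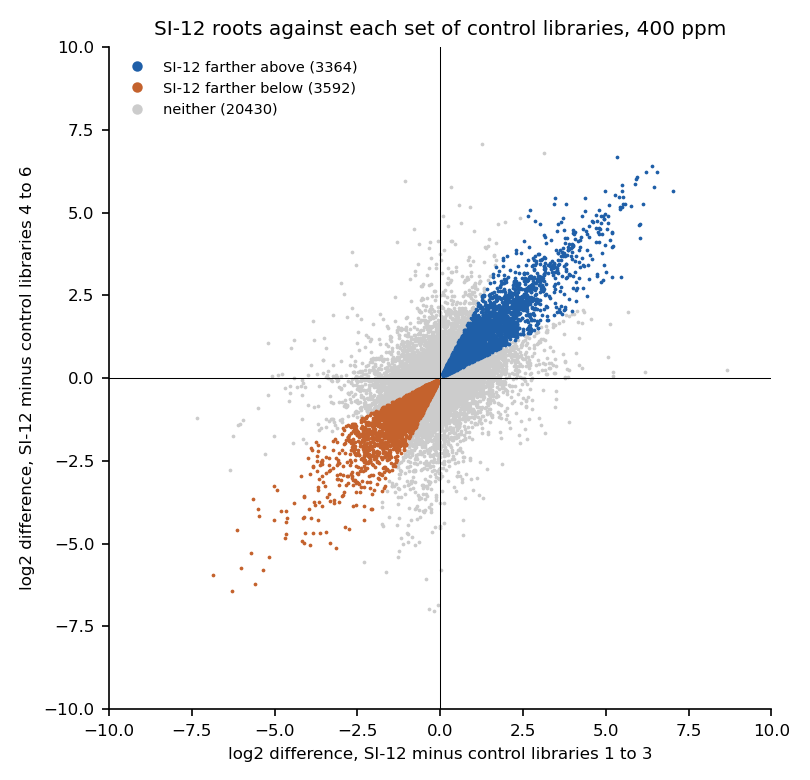
Each point is 1 of the 27386 genes tested: the x axis gives the log2 difference of SI-12 roots from control libraries 1 to 3 and the y axis that from control libraries 4 to 6, both at 400 ppm. Blue points (3364 genes) and orange points (3592 genes) lie farther above or below both control sets than those sets lie from each other, and grey points off the diagonal are genes on which the control sets differ from each other.

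The control sets disagreed with each other on many genes. They were 2-fold or more apart in 3568 genes (13% of those tested), and SI-12 roots lay between them in 1826 of these genes (51.2%), above both in 803 and below both in 939. In 7927 genes the control sets were less than 1.1-fold apart. There, SI-12 roots were at least 2-fold above both sets in 429 genes and at least 2-fold below both in 232.

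The gene that rose most among those with at least 1 CPM in every library of both groups and at least 90% unique reads was Eucgr.C00942.1. It had 340.4, 407.1 and 354.5 CPM in SI-12 roots, against 8.08, 7.63, 8.66, 9.12, 8.07 and 6.38 CPM in control roots. The groups were far apart, and the control sets did not differ for this gene beyond their spread (log2 difference -0.04, SE 0.61, adjusted p = 0.977). The rise was 45.8-fold (log2 5.52, SE 0.49, adjusted p = 5.82e-08, edgeR). Per gene length, Eucgr.C00942.1 averaged 291 RPKM in SI-12 roots and ranked 237 among the genes, against 6.09 RPKM and rank 14747 in control roots. In SI-9 roots it was at 13.7, 151 and 9.03 CPM, so that SI-9 library 2 stood above the other SI-9 libraries and below every SI-12 library. At 650 ppm it had 24.9 to 29.2 CPM in SI-12 roots, against 12.6 to 15.9 CPM in control roots, groups that do not overlap but whose difference did not pass the test (log2 0.83, SE 0.50, adjusted p = 0.199). That SE draws on the spread of all groups in the fit, among them SI-9 roots at 400 ppm with an SD of 80.6 CPM. Within the groups at 650 ppm the SD was 2.26 CPM in SI-12 roots and 1.42 CPM in control roots.

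Eucgr.C03545.1 had 52.9, 56.6 and 46.3 CPM in SI-12 roots, against 1.98, 1.21, 1.15, 1.08, 2.14 and 2.67 CPM in control roots. All 3 SI-12 libraries stood above all 6 control libraries, which did not separate by set (log2 difference 0.42, SE 0.38, adjusted p = 0.467). The rise was 30.7-fold (log2 4.94, SE 0.29, adjusted p = 2.22e-10). In SI-9 roots it was at 25.6, 37.8 and 23 CPM, and the excess in SI-12 over SI-9 roots did not pass the test (log2 0.85, SE 0.32, adjusted p = 0.0559). At 650 ppm the order was turned, with 1.33 to 2.02 CPM in SI-12 roots, against 5.32 to 7.70 CPM in control roots.

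The genes that fell most by the same rule both separated the control sets, in opposite directions. Eucgr.B03659.1 had 11.1, 8.21 and 7.31 CPM in SI-12 roots, against 96.6, 94.3 and 93.1 CPM in control libraries 1 to 3 and 296, 301 and 297 CPM in control libraries 4 to 6. SI-12 roots lay below both sets, although the sets themselves differed 3.15-fold. The fall was 22.2-fold against all controls (log2 -4.47, SE 0.55, adjusted p = 3.33e-06), 33.8-fold against libraries 4 to 6 and 10.7-fold against libraries 1 to 3. It was also low in SI-9 roots at 400 ppm (13.6 to 21.4 CPM) and lower in SI-12 than in control roots at 650 ppm, at 4.40 to 6.07 CPM against 25.4 to 35.8 CPM (log2 -2.56, SE 0.52, adjusted p = 0.000584).

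Eucgr.B02913.1 had 13.2, 5.4 and 9.47 CPM in SI-12 roots, against 321, 319 and 323 CPM in control libraries 1 to 3 and 99.4, 91.4 and 92.6 CPM in control libraries 4 to 6. Here the higher control set was the other one, and SI-12 roots again lay below both. The fall was 22.1-fold against all controls (log2 -4.47, SE 0.58, adjusted p = 6.32e-06), 10.04-fold against libraries 4 to 6 and 34.1-fold against libraries 1 to 3. SI-9 roots, at 336, 209 and 366 CPM, stood at the level of the higher control set or between the sets. At 650 ppm it had 24.1 to 29.7 CPM in SI-12 roots, against 128 to 236 CPM in control roots (log2 -2.85, SE 0.52, adjusted p = 0.000201). With near-identical libraries summed into sets, adjusted p for these 4 genes was 0.112 to 0.258 by edgeR and at most 0.00263 by DESeq2.

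Taken by absolute difference in mean CPM against control libraries 4 to 6, the neighbours of the SI-12 libraries in library number, other genes came to the front. Eucgr.F04219.1 had 604, 483 and 541 CPM in SI-12 roots, against 2662, 2667 and 2788 CPM in control libraries 4 to 6 and 1632, 1685 and 1547 CPM in control libraries 1 to 3. SI-12 roots lay below every control library and below SI-9 roots (1279 to 1842 CPM). The log2 change was -2.32 (SE 0.14, adjusted p = 9.4e-11) against libraries 4 to 6 and -1.58 (SE 0.14, adjusted p = 1.51e-08) against libraries 1 to 3.

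Eucgr.F01776.1 had 1365, 1092 and 1321 CPM in SI-12 roots, against 2736 to 2922 CPM in control libraries 4 to 6 and 3023 to 3166 CPM in control libraries 1 to 3. The control sets did not overlap for this gene, but their difference was small and did not pass the test (log2 -0.12, SE 0.16, adjusted p = 0.632). SI-12 roots lay below both (log2 -1.17, SE 0.17, adjusted p = 1.23e-05 against libraries 4 to 6). At 650 ppm it had 1901 to 1978 CPM in SI-12 roots, against 1229 to 1965 CPM in control roots, and these groups overlapped.

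Eucgr.B02368.1, which ranked 2 by RPKM in SI-12 roots as in control roots, had 7222, 7591 and 7019 CPM in SI-12 roots, against 6440, 6145 and 5896 CPM in control libraries 4 to 6 and 5502 to 5750 CPM in control libraries 1 to 3. It stood above every control library by a small factor, 1.18-fold against libraries 4 to 6 (log2 0.24, SE 0.08, adjusted p = 0.0267). That call was lost when SI-12 library 1 or 2, or control library 5 or 6, was left out (adjusted p = 0.0531 to 0.105).

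For Eucgr.F02872.1 the answer depended on the control set. It had 2457, 2326 and 2457 CPM in SI-12 roots, against 1427, 1371 and 1449 CPM in control libraries 4 to 6 and 2748, 2726 and 2632 CPM in control libraries 1 to 3. SI-12 roots lay between the sets, above libraries 4 to 6 (log2 0.77, SE 0.24, adjusted p = 0.0144) and not separable by the test from libraries 1 to 3 (log2 -0.16, SE 0.23, adjusted p = 0.6247).

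**Figure D2:**
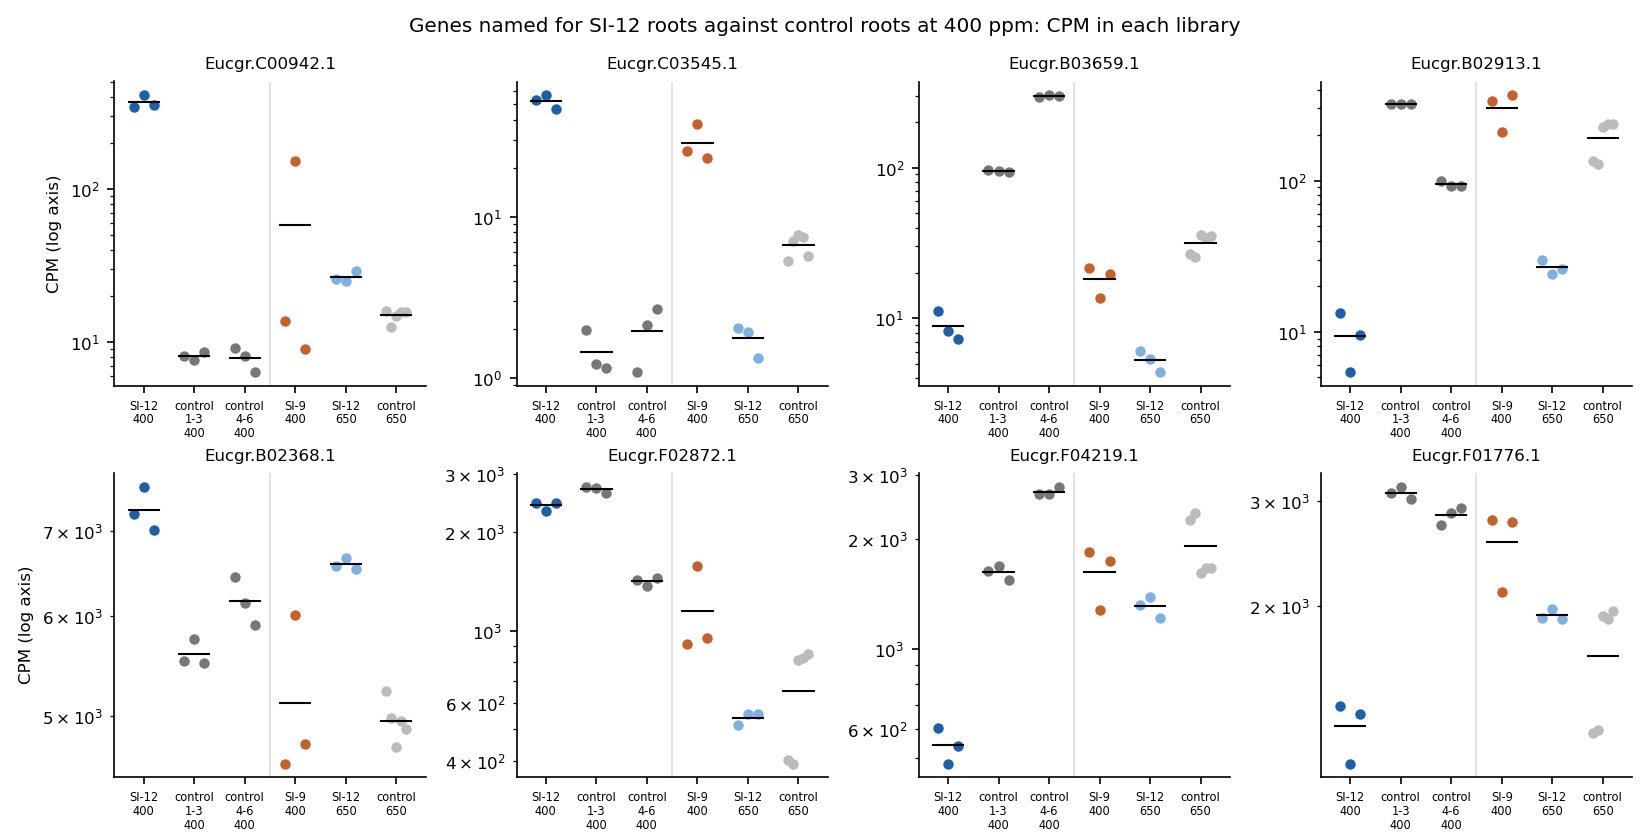
CPM (log axis) of 8 genes in each library, with SI-12 roots at 400 ppm at the left, the 2 sets of control libraries beside them, and SI-9 roots at 400 ppm, SI-12 roots at 650 ppm and control roots at 650 ppm to the right of the grey line; each point is 1 library and the bar is the group mean. Eucgr.C00942.1 and Eucgr.C03545.1 stand above all control libraries, Eucgr.B03659.1 and Eucgr.B02913.1 lie below both sets while the sets swap order, and Eucgr.F02872.1 lies between the sets.

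Genes that rose held 17.3% to 17.7% of the reads of tested genes in SI-12 libraries, against 10.1% to 10.5% in control libraries. Genes that fell held 18.9% to 19.6% in SI-12 libraries, against 28.2% to 29.0% in control libraries. These shares follow from the calls and are given as a description.

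By mean level, the share of genes that fell grew with abundance while the share that rose did not. Among 4135 tested genes under 1 CPM, 9.46% rose and 11.7% fell. Among 9309 genes at 1 to 10 CPM, 16.7% rose and 17% fell, and among 11641 genes at 10 to 100 CPM, 15% rose and 18.9% fell. Among 2240 genes at 100 to 1000 CPM, 12.3% rose and 26.5% fell, and of the 35 genes over 1000 CPM, 5 rose and 14 fell. Between the control sets, in genes of the same class at 100 to 1000 CPM, 19.5% were higher and 13.2% lower in libraries 4 to 6. Per gene length, 13 of the 100 most abundant transcripts rose and 25 fell, as did 167 and 209 of the 1000 most abundant.

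Gene length went with direction as well. In the class of the shortest genes (201 to 829 bases) 15.7% rose and 12.6% fell, with a median log2 change of 0.04. In the class of the longest genes (2274 to 14799 bases) 9.73% rose and 24.6% fell, with a median of -0.11. The order was the same against either control set: among the longest genes, 23.4% were lower against libraries 4 to 6 and 27.4% against libraries 1 to 3. Between the control sets the classes differed less, with 13% higher and 10.03% lower among the shortest genes and 12% higher and 13.6% lower among the longest, in libraries 4 to 6 against 1 to 3. The part of read number per gene in these shares was not tested.

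**Figure D3:**
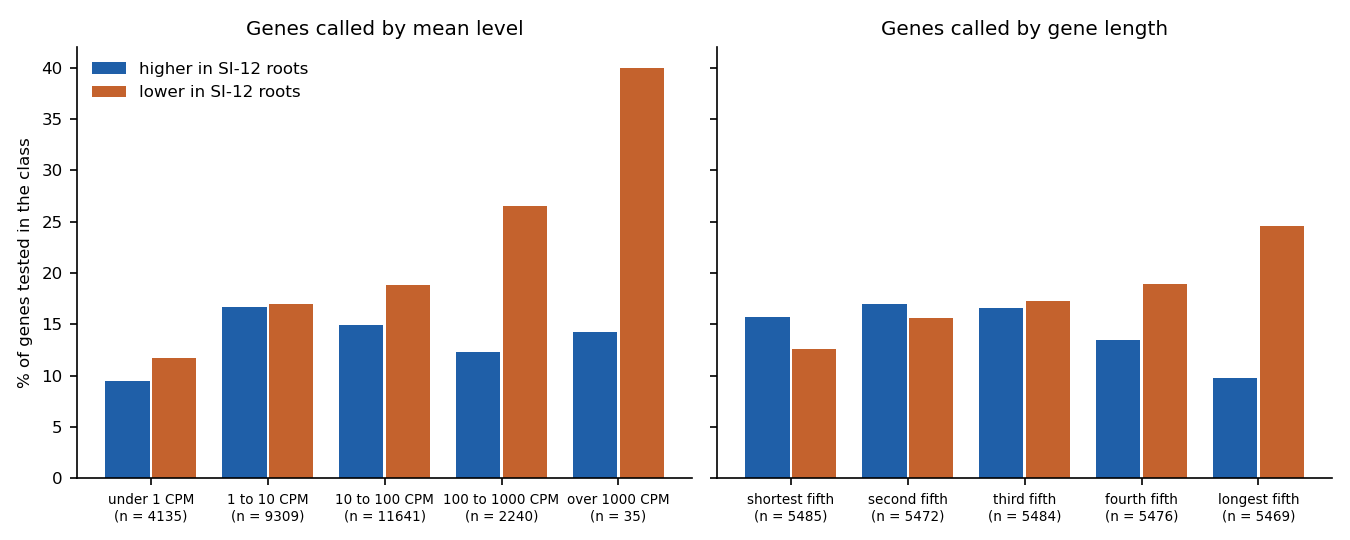
Bars give the percentage of tested genes called higher (blue) or lower (orange) in SI-12 roots than in control roots at 400 ppm, by mean level in CPM (left) and by gene length (right), with the number of genes in each class under it. The share of genes that fell is 26.5% at 100 to 1000 CPM and 24.6% among the longest genes, against 17.8% of all genes tested.

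The identifiers carry a letter and a running number, which group genes without any annotation. Of the genes of letter L, 40.1% were 2-fold or more apart between SI-12 and control roots, called or not, followed by letters E (31.6%) and C (29.3%), and letter J was lowest at 19.7%. Over all letters this share fell with level, from 56% of genes under 1 CPM to 4.15% at 100 to 1000 CPM. By calls, 16.8% of L genes rose and 17.3% fell, against 14.5% and 17.8% of all genes tested. For E genes the shares were 16.9% and 17.7%, and for C genes 15.3% and 19.4%. The part of level in the order of letters was not tested. Between the control sets the same 3 letters led, with 38.6% of L genes, 30.1% of E genes and 26.4% of C genes 2-fold or more apart, and letters A (15.9%), B (16.2%) and J (16.7%) were lowest. In 167 windows of 250 consecutive numbers in letters A to K, with at least 60 tested genes each, the share of genes 2-fold or more apart ran from 10.9% to 46.8% in SI-12 against control roots (median 23.9%). Between the control sets it ran from 6.67% to 58.8% (median 19.3%).

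Some windows were high in one contrast and in the other. In letter E, numbers 2000 to 2249, 46.1% of 102 genes differed 2-fold or more in SI-12 against control roots, against 58.8% between the control sets. In letter E, numbers 2500 to 2749, the shares were 44.4% and 56.6% of 99 genes. In letter C, numbers 1250 to 1499, the highest of the windows in letters A to K for SI-12 against control roots, they were 46.8% and 37.7% of 154 genes. By the distance of SI-12 roots from the nearer control set, the order differed. In the same order of windows, 19.6%, 16.2% and 31.2% of genes lay farther from it than the control sets lay apart, against 25.4% of all genes tested. The control libraries are part of both contrasts, so the shares are set side by side without a measure of likeness.

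**Figure D4:**
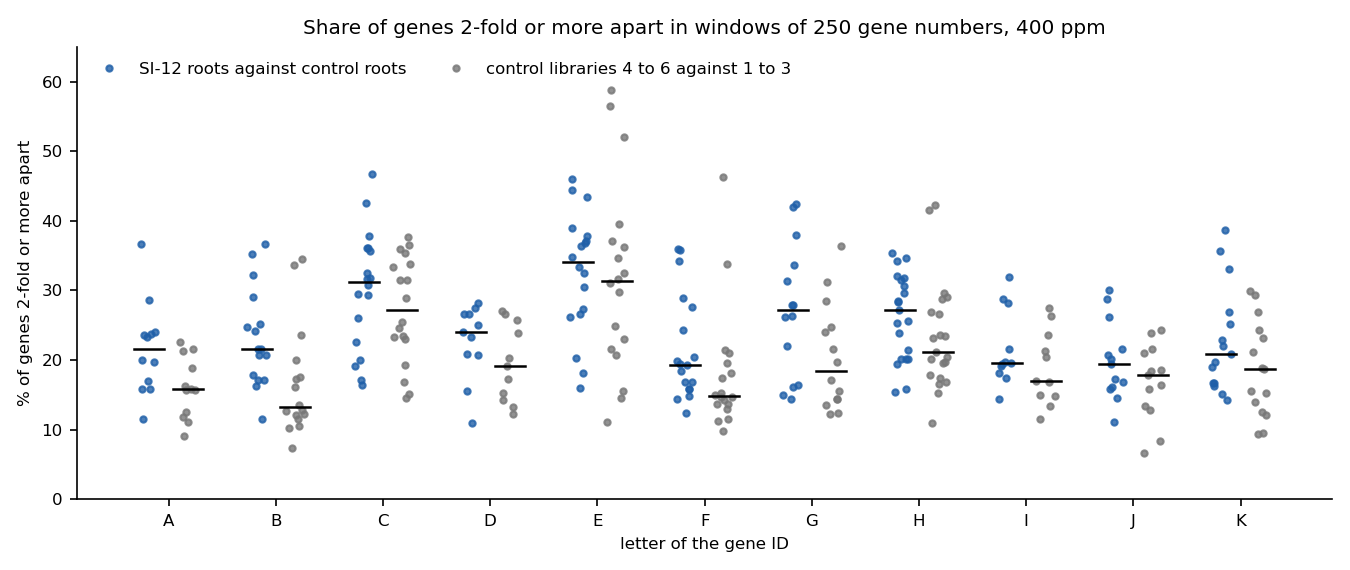
Each point is a window of 250 consecutive gene numbers under 1 letter of the identifier, and its height is the percentage of its genes that were 2-fold or more apart; blue points are SI-12 roots against control roots at 400 ppm, grey points control libraries 4 to 6 against 1 to 3, and bars are medians of the windows. Only letters A to K are drawn; among these, C and E hold the highest medians in both contrasts, and the highest single window is a grey one in letter E, at 58.8%.

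Some genes were present in 1 group only. Of the 27386 genes tested, 41 had no reads in any of the 6 control libraries and at least 1 CPM in each SI-12 library. Their group means were 1.18 to 42.1 CPM (median 3.93) in SI-12 roots. Against a floor of 3 reads over the control group (0.0227 CPM), their level in SI-12 roots was at least 52.1-fold higher, with a median bound of 173-fold. Conversely, 32 genes had no reads in SI-12 roots and at least 1 CPM in each control library, at 1.33 to 30.1 CPM (median 4.47) in control roots. Against 3 reads over the SI-12 group (0.0838 CPM), their level in SI-12 roots was at least 15.9-fold lower, with a median bound of 53.4-fold. Intervals and floors cover counting error only. Because fewer than 90% of their reads matched 1 gene only, 22 of the 41 and 12 of the 32 genes may share reads with near-identical copies. Of all 27386 genes tested, 5851 had so few unique reads, a smaller share than among the 41 or the 32. The like count of genes present in only 1 of the control sets is not given here.

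Outside the groups that chose them, the 41 genes were seen unevenly. All 41 had reads in SI-9 library 2 at 400 ppm, with a median level equal to 47.6% of the mean in SI-12 roots. In the other SI-9 libraries, 14 of the 41 had reads in library 1 and 22 in library 3, at medians of 0% and 1.05% of the SI-12 mean. SI-12 roots at 650 ppm had reads of 29 to 31 of them per library, at medians of 6.65% to 11.1% of the mean in SI-12 roots at 400 ppm, and control roots at 650 ppm had reads of 15 to 22. Of the 32 genes without reads in SI-12 roots at 400 ppm, 22 to 24 had reads in each SI-12 library at 650 ppm and 27 to 29 in each control library at 650 ppm. Tested at 650 ppm, on libraries that the choice did not use, 16 of the 41 genes stood higher in SI-12 roots than in control roots and 2 lower, and 14 of the 32 stood lower and 4 higher. Of all genes tested at 650 ppm, 19.9% stood higher in SI-12 roots and 19.7% lower.

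**Figure D5:**
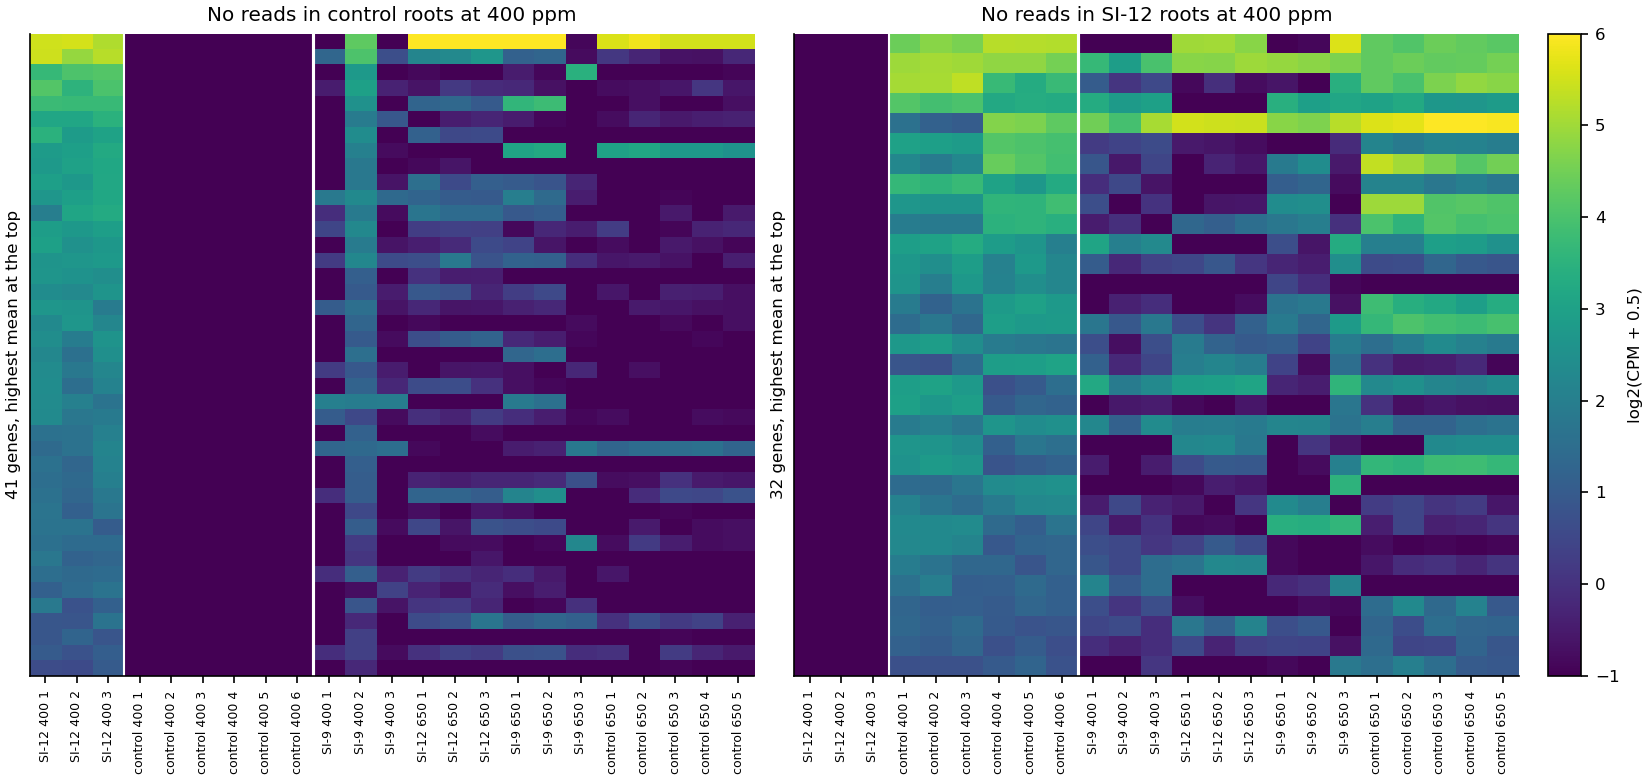
Rows are the 41 genes with no reads in control roots at 400 ppm (left) and the 32 genes with no reads in SI-12 roots at 400 ppm (right), columns are the 23 libraries, and colour is log2(CPM + 0.5). White lines separate SI-12 roots at 400 ppm, control roots at 400 ppm and the other groups; in the left panel, SI-9 library 2 at 400 ppm is the only column of the other groups with reads of all 41 genes.

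SI-12 and SI-9 roots at 400 ppm differed in 3454 genes (12.6%) higher and 4214 (15.4%) lower in SI-12 roots, 28% in all. The SI-9 libraries carry the library numbers 1 to 3 and the SI-12 libraries 13 to 15. Strain therefore cannot be told apart from library number range in these counts. The control sets with numbers 4 to 6 and 16 to 18 differed in 25.9% of genes, in the fit with 2 control means. SI-9 library 2 stood apart from its group: it differed from SI-12 libraries by a coefficient of variation of 0.312 to 0.320 and from SI-9 libraries 1 and 3 by 0.248 and 0.276, whereas SI-9 libraries 1 and 3 differed from each other by 0.0962 and from SI-12 libraries by 0.520 to 0.573. Without SI-9 library 2 the counts were 4391 higher and 4559 lower. Without SI-9 library 1 they were 1979 and 3047, and without SI-9 library 3 they were 1753 and 2731. With a 2-fold minimum in the test, 71 genes were called higher in SI-12 roots and 782 were called lower.

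Single genes show the same. Eucgr.I01667.1 had 19.1, 20.4 and 24.5 CPM in SI-12 roots, against 1.77, 7.16 and 1.02 CPM in SI-9 roots. Library 2 was again the highest of the SI-9 libraries, and the groups did not overlap. The log2 difference was 2.66 (SE 0.71, adjusted p = 0.00814) with all SI-9 libraries and 4.02 (adjusted p = 0.000898) without library 2, and the call was lost without library 3 (log2 2.19, adjusted p = 0.0523). For Eucgr.C00942.1 it was 2.64 (SE 0.57, adjusted p = 0.0019) with and 5.07 (adjusted p = 1.45e-12) without that library.

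Among called genes with at least 1 CPM in every library of both groups, at least 90% unique reads and no overlap, those furthest below their SI-9 level in SI-12 roots were Eucgr.B02913.1, described above (log2 -5.01, SE 0.62, adjusted p = 7.52e-06), and Eucgr.K00177.1. Eucgr.K00177.1 had 1.90, 1.00 and 1.57 CPM in SI-12 roots, against 38.4, 24.2 and 47.6 CPM in SI-9 roots (log2 -4.61, SE 0.56, adjusted p = 6.01e-06). Control roots at 400 ppm, at 23.4 to 35.6 CPM, stood with SI-9 roots, and so did SI-12 roots at 650 ppm, at 42.1 to 44.4 CPM. The SI-12 roots at 400 ppm were low for this gene and the other groups at 400 ppm were not.

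At 650 ppm, where no library is shared with the comparison at 400 ppm, SI-12 roots differed from control roots in 5447 genes (19.9%) higher and 5395 (19.7%) lower, 39.6% in all. Control roots at 650 ppm also formed 2 sets, libraries 1 and 2 and libraries 3 to 5. Pairs across these sets differed by a coefficient of variation of 0.245 to 0.251, against 0.0590 to 0.0785 within them. SI-12 libraries at 650 ppm formed 1 set, so these counts too rest on treating libraries as separate samples. Of the 3969 genes that rose at 400 ppm, 1051 rose at 650 ppm, which is 26.5% of the genes that rose at 400 ppm and 19.3% of those that rose at 650 ppm, and 565 (14.2%) fell there. Of the 4867 genes that fell at 400 ppm, 1569 fell at 650 ppm, which is 32.2% of the genes that fell at 400 ppm and 29.1% of those that fell at 650 ppm, and 813 (16.7%) rose there. Of the 3364 genes that lay farther above both control sets than these lay apart, 938 (27.9%) rose and 478 (14.2%) fell at 650 ppm. Of the 3592 genes that lay as far below, 1159 (32.3%) fell and 649 (18.1%) rose. In each of these lists, calls in the same direction outnumbered calls in the opposite direction, and most genes called at 400 ppm were not called in the same direction at 650 ppm.

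The difference between the SI-12 response at 400 ppm and that at 650 ppm was tested as an interaction. It was positive in 4121 genes (15%) and negative in 4959 (18.1%), 33.2% in all. With libraries summed into sets, edgeR called 8 and 13 genes and DESeq2 573 and 712. Among called genes with at least 1 CPM in every library of the 4 groups and at least 90% unique reads, the largest positive value was that of Eucgr.C03545.1 (log2 6.84, SE 0.47, adjusted p = 1.51e-09), which rose in SI-12 roots at 400 ppm and fell at 650 ppm (log2 -1.90, SE 0.35, adjusted p = 0.000193).

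Eucgr.D02651.1 (log2 5.95, SE 0.27, adjusted p = 3.53e-12) had a positive value with a difference at 650 ppm and none that passed the test at 400 ppm. At 650 ppm it had 7.18, 6.38 and 6.72 CPM in SI-12 roots, against 285, 273, 354, 345 and 346 CPM in control roots. At 400 ppm it had 7.04, 5.4 and 4.11 CPM in SI-12 roots, against 3.13 to 5.4 CPM in control roots, and the groups overlapped (log2 0.39, SE 0.19, adjusted p = 0.132). It was the one gene among those named whose call held with libraries summed into sets by edgeR (adjusted p = 0.0233).

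Eucgr.K01619.1 (log2 -6.42, SE 1.46, adjusted p = 0.00204) was uneven within groups. It had 12.5, 2.00 and 1.76 CPM in SI-12 roots at 400 ppm, against 1.22, 3.63, 2.14, 4.85, 1.85 and 38 CPM in control roots. The groups at 400 ppm overlapped, and control library 6 stood far above the other control libraries. At 650 ppm it had 52.3, 91.5 and 239 CPM in SI-12 roots, against 1.5 to 3.63 CPM in control roots.

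Eucgr.G00898.1 (log2 -5.81, SE 0.92, adjusted p = 6.43e-05) again separated the control sets. It had 2.66, 7.11 and 4.18 CPM in SI-12 roots at 400 ppm, against 45.3, 42.1 and 47.3 CPM in control libraries 4 to 6 and 5.84, 4.76 and 6.99 CPM in control libraries 1 to 3. SI-12 roots overlapped libraries 1 to 3 and lay below libraries 4 to 6, and the fall against all controls at 400 ppm (log2 -2.44, SE 0.68, adjusted p = 0.00878) was not called against libraries 1 to 3 (log2 -0.35, SE 0.30, adjusted p = 0.392). At 650 ppm it had 96.4 to 104 CPM in SI-12 roots, against 8.02 to 11.4 CPM in control roots.

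Per library, SI-12 roots had more genes at 1 CPM or more, and the 100 most abundant genes held a smaller share of reads. The numbers of such genes were 22555, 22887 and 22608 in SI-12 libraries, against 22307, 22316, 22356, 22449, 22366 and 22381 in control libraries. SI-12 libraries stood above all control libraries (exact permutation test, 2-sided, p = 0.0238, 0.0476 adjusted over 2 measures). The 100 most abundant genes of a library held 11.4%, 10.6% and 11.1% of its reads in SI-12 roots, against 11.6%, 11.7%, 11.3%, 11.9%, 11.8% and 11.9% in control roots. One control library lay below one SI-12 library, so these groups overlapped (exact permutation test, 2-sided, p = 0.0476, 0.0476 adjusted). The difference was -0.640 percentage points with all libraries and -0.405 without SI-12 library 2 (exact permutation p = 0.143). Leaving out any single library other than control library 3 gave an exact permutation p of 0.0714 or more. With an SI-12 library left out, 0.0714 is the smallest p the design can give, so those p-values decide nothing. For the 10 most abundant genes the share was 0.179 points higher in SI-12 roots (exact permutation p = 0.0952). Thinned to the depth of the shallowest of the 9 libraries, SI-12 roots still had more genes at 1 CPM or more, by 399 on average. With control libraries 4 to 6 alone the smallest p of a 3 against 3 design is 0.1, which both measures reached. All these permutation tests take libraries as separate samples, although the libraries form 1 near-identical SI-12 set and 2 control sets.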

How the data were processed

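The deposited tables, 1 per library, pair each gene's length in bases with 2 read counts (reads matching that gene alone, and all of its reads) and an RPKM value. Per the labels, RNA was extracted from frozen roots and sequenced as read pairs. Per the file headers of some control libraries, trimmed read pairs entered an RNA-Seq step. Aligner, genome build and use of strand: not given in the sources used here. The deposited RPKM could be rebuilt from total gene reads, gene length and the sum of gene reads in all 23 libraries (within 1% plus rounding), and it served only for levels per length. Because strand use is not stated, antisense genes cannot be told apart, and 5851 of the tested genes (2084 of those called) had under 90% of their reads matched to 1 gene.

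Deposited total gene read counts were tested as they stand with edgeR 4.0.16 (limma 3.58.1, R 4.3.3): TMM factors, filterByExpr by group, glmQLFit and glmQLFTest, 2-sided, with p-values adjusted by Benjamini-Hochberg and a threshold of 0.05. A single fit held all 23 libraries, with a mean for each group; for the comparisons with each control set, control roots at 400 ppm had 2 means. Standard errors were derived from the F statistic and the log2 change, and spreads between pairs of libraries are square roots of edgeR's common dispersion. The test was checked on simulated counts drawn independently for each library. These lack the near-identical sets of the real libraries, so the check cannot vouch for calls that take libraries as separate samples. Values per library were compared by exact permutation tests (SciPy 1.17.1). DESeq2 1.42.0 was run as an alternative. Figures were made with matplotlib 3.10.9.

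The comparison, the gene lists, the tests and the rules were chosen with earlier results of these data known. Lists of mycorrhiza and root marker genes rest on gene descriptions and were left unused, since the identifiers matched no description. Named genes are the 2 with the largest positive and the 2 with the largest negative log2 difference per comparison among called genes at 1 CPM or more in every library, with at least 90% unique reads and no overlap of the groups (overlap allowed for the interaction); against control libraries 4 to 6 the largest difference in mean CPM among genes not yet named was taken. Near-identical libraries (coefficient of variation under 0.2 within a group) were also summed into 10 sets; SI-12 roots at 400 ppm then have 1 set, assumed to vary like the sets of other groups. In single libraries of the 9, 3 reads equal 0.0993 to 0.318 CPM, and lower levels rest on fewer reads.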

Additional observations from a re-analysis of the deposited data

Results flagged for a closer look

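In control roots at 400 ppm, Eucgr.K01619.1 had 38 CPM in library 6, far from the other 5 control libraries at 1.22 to 4.85 CPM. In all, 28 groups of 4 to 6 control libraries were examined for such a gap, and chance gives about 1 in 20.

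The response to SI-12 differed between 400 and 650 ppm in 9080 genes (33.2%) by the interaction test of edgeR. By the rule for named genes, the log2 difference of the response at 400 ppm minus that at 650 ppm was 6.84 for Eucgr.C03545.1, 5.95 for Eucgr.D02651.1, -6.42 for Eucgr.K01619.1 and -5.81 for Eucgr.G00898.1. With near-identical libraries summed into sets, edgeR called 21 genes and DESeq2 1285. For Eucgr.K01619.1 and Eucgr.G00898.1, 1 control library or 1 control set at 400 ppm stood apart, and the part of this in the difference was not tested.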

How the results depend on the processing

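The unit of replication moved every count of calls. With near-identical libraries summed into sets, edgeR called 0 genes (3597 at an unadjusted p under 0.05) and DESeq2 1452 for SI-12 against all control roots at 400 ppm. The same settings gave 1 (3149) and 1162 against control libraries 4 to 6, 0 (3637) and 1535 against control libraries 1 to 3, 0 (3101) and 806 against SI-9 roots, 21 and 1285 for the dependence on CO2, and 150 and 2479 for SI-12 against control roots at 650 ppm. With a 2-fold minimum in the test the counts were, in the same order, 2051, 2590, 3006, 853, 2513 and 2249. Fewer replicates and a larger minimum change lower such counts by construction.

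Leaving out 1 library gave 6807 to 9105 calls against all control roots, and 4484 to 8950 against SI-9 roots, where leaving out SI-9 library 3 gave the lowest and leaving out library 2 the highest count; the other counts of calls stayed within 1.5 times. Other scaling, filters, unique reads, DESeq2 on single libraries, fits of only the groups compared and the library number range as a block kept every count of calls within 1.5 times. The 3 descriptive counts (no overlap, distance from both control sets, presence in 1 group) also stayed within 1.5 times; these alternatives were chosen after seeing the data.

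The replicate number does not pair libraries: deviations of same-numbered SI-12 and control libraries at 400 ppm correlated across genes by -0.0182, 0.0138 and -0.0324. With the replicate block, 11313 genes were called with all control roots in the fit and 11297 against libraries 1 to 3. In the first of these fits control libraries 4 to 6 each had a block term of their own and added nothing to the contrast. That count is thus in effect one against libraries 1 to 3. The block gave 6432 calls against SI-9 roots, 9668 for the dependence on CO2 and 10344 at 650 ppm. At 650 ppm, control libraries 4 and 5 likewise added nothing to the contrast. No paired analysis was possible against control libraries 4 to 6 because these share no replicate number with SI-12 libraries.

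SI-12 libraries had 321 more genes at 1 CPM or more on average, 219 to 385 when 1 library was left out and 285 against control libraries 4 to 6 alone (exact permutation p = 0.1). The share of reads in the 100 most abundant genes differed by -0.640 percentage points, -0.831 to -0.405 with 1 library left out and -0.799 against control libraries 4 to 6 (exact permutation p = 0.1). For the 10 most abundant genes it was 0.179 points higher in SI-12 roots (exact permutation p = 0.0952); the cause was not tested.

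Every named gene kept its direction under every alternative run. Of 16 named results, 15 lost their call with sets in edgeR, 5 with sets in DESeq2 and 4 with a 2-fold minimum, and Eucgr.B02368.1 and Eucgr.I01667.1 lost theirs in some fits without 1 library.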

Other observations

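In SI-9 roots at 400 ppm, library 2 carried reads of all 41 genes that separate SI-12 from control roots by presence, 32 of them at 1 CPM or more, against 6 in each of SI-9 libraries 1 and 3. Of the 32 genes without reads in SI-12 roots, 9 were at 1 CPM or more in SI-9 library 2, against 17 in library 1 and 12 in library 3. No cause was tested.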
